A study of Mus musculus with 32 samples.

Results

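The genes described here are 10 members of the Notch pathway, namely the receptors Notch1, Notch2 and Notch3, the ligands Dll1, Dll3 and Jag1, and the target genes Hes1, Hes3, Hes5 and Hey1. They were matched by Ensembl identifier and symbol among 48576 genes with a deposited value, and all 10 were found. RNA was sequenced from forebrain (Fb) and midbrain (Mb) pieces of E9.5 mouse embryos of the B6C3F1 strain. Each tissue had 6 wild-type (WT) libraries from WT matings, 4 libraries of Cdh6/8/11 triple knockouts (TKO), 3 of DKO_Ex and 3 of DKO_CD, so that 32 libraries were compared. The mutant embryos came from matings of Cdh6/8/11 triple heterozygotes, so genotype and parentage cannot be told apart in the mutant comparisons. DKO_Ex are Cdh8/11 double knockouts with exencephaly, in which the cranial neural tube fails to close. DKO_CD are double knockouts with a cranial defect, called Cdh6/8 in the sample labels and Cdh8/11 in the methods of the study. The mutant alleles are small constitutive CRISPR deletions within the exon that holds the start codon, and all go back to a single founder mouse. For 12 DKO files, heading and record disagree on which DKO group the library is. The headings were followed here, and what the records would give is stated where it matters. Exchanging them makes DKO_Ex and DKO_CD change places and leaves WT and TKO as they are.

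Notch receptors are bound by Delta and Jagged ligands on neighbouring cells, and proteases then release the intracellular part of the receptor. That part enters the nucleus and, with the DNA-binding protein Rbpj, switches on genes of the Hes and Hey families, whose products repress proneural genes. In the neural tube this keeps some neuroepithelial cells as progenitors while their neighbours, which make the ligands, become neurons. Hes1 and Hes3 are also known from early neuroepithelium and from the boundary between midbrain and hindbrain, where they can be made without Notch.

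The genes lie on several chromosomes of GRCm38 and all code for proteins. Notch1 is at chr2:26457903-26516663 (minus strand), Notch2 at chr3:98013527-98150361 (plus strand) and Notch3 at chr17:32120820-32166852 (minus strand). Dll1 is at chr17:15367354-15376872, Dll3 at chr7:28293553-28302238 and Jag1 at chr2:137081456-137116644, all on the minus strand. Hes1 is at chr16:30064384-30067796 (plus strand) and Hey1 at chr3:8663359-8667256 (minus strand). Hes3 (chr4:152285972-152291662, minus strand) and Hes5 (chr4:154960923-154962371, plus strand) share a chromosome.

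The Hes5 promoter is the known example of a direct Notch target, and its sequence is shown beside that of a ligand and a receptor. RefSeq promoter windows on GRCm38.p6 were found for 7 of the 10 members, and Hes1, Hes3 and Hey1 had no entry. The windows of Hes5, Dll1 and Notch3 are printed because they are the ones that lie outside every annotated transcript of their strand. Each is the 250 bases before the transcription start, read 5′ to 3′ on the strand of the gene, and capitals mark TGGGAA, the core letters bound by Rbpj, or its reverse complement TTCCCA.
Hes5, chr4:154960673-154960922, plus strand: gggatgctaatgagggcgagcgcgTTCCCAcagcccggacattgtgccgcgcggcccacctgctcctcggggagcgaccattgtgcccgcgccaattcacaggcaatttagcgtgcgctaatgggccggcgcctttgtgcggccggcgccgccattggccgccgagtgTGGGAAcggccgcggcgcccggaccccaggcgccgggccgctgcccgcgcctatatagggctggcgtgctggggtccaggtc
Dll1, chr17:15376933-15377182, minus strand: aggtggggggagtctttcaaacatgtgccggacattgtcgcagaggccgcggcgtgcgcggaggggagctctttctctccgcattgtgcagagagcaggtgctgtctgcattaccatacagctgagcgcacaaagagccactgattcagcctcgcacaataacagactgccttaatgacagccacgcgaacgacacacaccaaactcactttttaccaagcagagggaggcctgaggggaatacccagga
Notch3, chr17:32166891-32167140, minus strand: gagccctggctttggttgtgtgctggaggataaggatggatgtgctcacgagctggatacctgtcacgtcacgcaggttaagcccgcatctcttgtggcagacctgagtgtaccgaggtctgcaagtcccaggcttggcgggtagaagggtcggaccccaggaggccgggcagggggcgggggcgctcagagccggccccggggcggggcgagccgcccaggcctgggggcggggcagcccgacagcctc
The Hes5 window held the core 2 times, beginning 226 and 82 bases before the start and on opposite strands. Both copies belong to the longer GTGGGAA. The windows of the other 6 members with an entry, including 2 for Dll1, held it 0 times. Among 32851 promoter windows of the same 250 bases, 21.6% held TGGGAA on either strand and 5.42% held GTGGGAA, so the single core is common.

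Levels are given in FPKM, fragments per kilobase of transcript and per total of mapped fragments, a unit per length that allows genes to be compared. The files hold no counts, and the step between low values put the depth at 2.10 to 3.48 M fragments per library. All 4 TKO Mb libraries were shallower than every WT Mb library. Most tissue markers went with the labels. Lhx2 was at 28.9 to 98.0 FPKM over the 16 Fb libraries and at 0.155 to 9.05 FPKM over the 16 Mb libraries, and all 7 forebrain markers were higher in the WT Fb than in the WT Mb. Of 7 midbrain and isthmus markers, 5 were higher in the WT Mb. The other 2 did not pass, Fgf8 with means of 14.2 FPKM in the Fb and 12.7 FPKM in the Mb and Pax2 with 3.13 and 2.63 FPKM. WT Mb replicate 5 stood apart. Its En1 was at 3.57 FPKM against 32.0 to 59.0 FPKM in the other 5 WT Mb libraries, its Fgf8 was listed at 0, and its Pax6 was 52.7 FPKM. The library labelled TKO Mb replicate 3 had Cdh6 at 3.10 FPKM, within the WT range of 1.04 to 3.55 FPKM. The Fb library of that number was likewise in the WT range. The other 3 TKO Mb libraries had Cdh6 at 0.345 to 0.388 FPKM, below the WT Mb range. The other 3 TKO Fb libraries had 0.572 to 1.84 FPKM, below the 2.04 to 4 FPKM of the WT Fb. The label of TKO replicate 3 is therefore in doubt. Fb libraries TKO replicate 4 and DKO_CD replicate 2 had the lowest Lhx2, at 28.9 and 30.4 FPKM. Their En1 was at 0 and 0.144 FPKM and their En2 at 0 and 0.207 FPKM. In the Mb, En2 was at 36.6 FPKM or more outside WT Mb replicate 5. Fgf8 was at 38.9 and 34.0 FPKM in these Fb libraries, against 7.39 to 22.5 FPKM in the WT Fb. Targeted genes check the labels only in part, since a small deletion leaves the rest of the transcript in the FPKM.

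The question put to the WT libraries was which Notch genes differ between the Fb and Mb. Of the 10 members, 5 were higher in the Mb (Hes3, Dll3, Hes5, Jag1 and Dll1), 2 were higher in the Fb (Hes1 and Hey1), and the receptors did not pass the test. The test was limma on log2(FPKM + 1) over the 13344 genes that averaged 1 FPKM or more, and a gene was called at a Benjamini-Hochberg adjusted p under 0.05. Among all genes tested, 8.26% were called, 4.66% as higher in the Mb and 3.60% as lower. The median log2 difference was 0.70 over the 10 members and 0.00 over all genes tested. In bulk tissue, fewer cells of a type and less RNA per cell cannot be told apart. Nothing in the labels says that libraries of a group come from separate embryos, so the p-values measure the spread between these libraries.

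**Figure D1:**
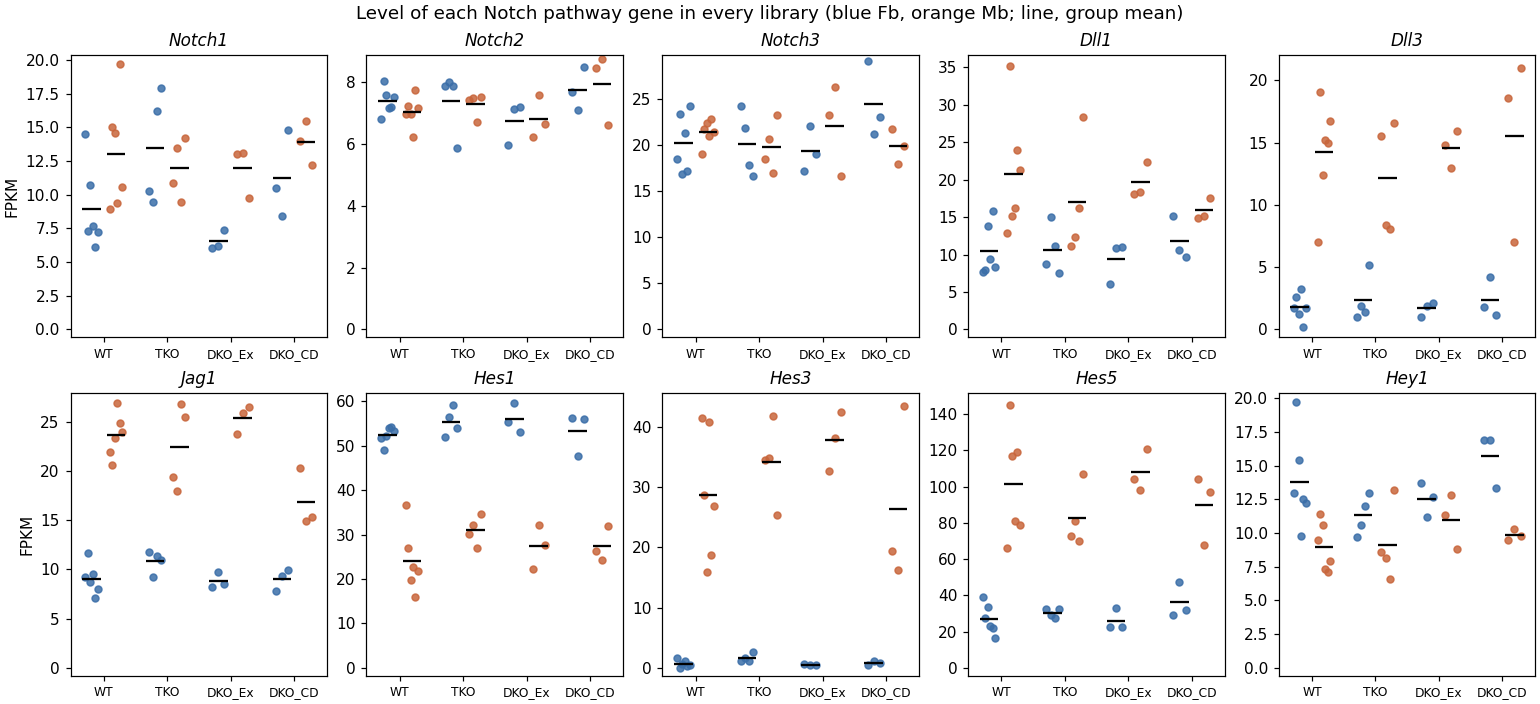
FPKM of each of the 10 genes (vertical axes, each panel with its own scale from 0) in the 32 libraries by genotype group, blue for Fb and orange for Mb, with a line at the group mean. The blue and orange points are apart in every group for Dll3, Jag1, Hes1, Hes3 and Hes5, and they mix for Notch2 and Notch3.

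The receptors are the proteins that receive the signal. Notch3 was the highest of the 3 in both tissues, with 20.2 ± 3.17 FPKM in WT Fb libraries and 21.4 ± 1.33 FPKM in WT Mb libraries (SD, n = 6 each). Its log2 difference between Mb and Fb was 0.09 (95% interval -0.13 to 0.31). Notch2 was at 7.40 ± 0.419 FPKM in the Fb and 7.06 ± 0.501 FPKM in the Mb (SD, n = 6 each), a difference of -0.06 (95% interval -0.24 to 0.12). Both intervals exclude a change of 1 on the log2 scale. Notch1 was more spread, from 6.08 to 14.5 FPKM in the WT Fb (median 7.46) and from 8.97 to 19.7 FPKM in the WT Mb (median 12.6). Its log2 difference of 0.50 had a limma adjusted p of 0.207 (unadjusted p = 0.0390), and the groups overlapped. The highest Notch1 value belonged to WT Mb replicate 5. Per length, Notch3 made up 55.3% of the summed FPKM of the 3 receptors in the WT Fb and 52.0% in the WT Mb (SD 6.64 and 4.32 percentage points).

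Dll3, a divergent Delta protein that stays inside the cell and dampens signalling in its own cell, was the ligand that differed most. It ran from 0.182 to 3.25 FPKM in the WT Fb (median 1.75) and from 7 to 19.1 FPKM in the WT Mb (median 15.1). The lowest Mb library therefore lay above the highest Fb library. The log2 difference was 2.50 (SE 0.29, limma adjusted p = 8.79e-05), and the ratio of the mean FPKM was 7.94. On the log2 scale it was 3.18 with a pseudocount of 0.1 and 1.48 with one of 5, each past the threshold. The Fb values rest on few fragments, an estimated 1 to 22 per library against 39 to 127 in the Mb.

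Jag1, a Jagged ligand that activates Notch receptors, ran from 7.12 to 11.7 FPKM in the WT Fb (median 8.97) and from 20.6 to 26.9 FPKM in the WT Mb (median 23.7). It was the ligand with the smallest spread in the Mb, and the groups did not overlap. Its log2 difference was 1.30 (SE 0.11, limma adjusted p = 4.30e-06). Dll1, the Delta ligand of newborn neurons, ran from 7.64 to 15.8 FPKM in the Fb (median 8.86) and from 12.9 to 35.2 FPKM in the Mb (median 18.7). The groups overlapped, since 2 Fb libraries reached 13.8 and 15.8 FPKM. The log2 difference of Dll1 was 0.90 (SE 0.24, limma adjusted p = 0.0333), a call that was lost without WT Mb replicate 5 (adjusted p = 0.0751) and under 9 other settings. Together, the 3 ligands summed to 21.3 ± 2.40 FPKM in the WT Fb and 58.7 ± 11.4 FPKM in the WT Mb (n = 6 each, SD), and the share of Dll3 in that sum was 8.56% in the Fb and 23.9% in the Mb.

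Among the target genes, which code for basic helix-loop-helix repressors, Hes3 differed most. Its WT Fb values were 1.62, 0, 0.719, 1.11, 0.276 and 0.441 FPKM, and its WT Mb values were 41.5, 28.7, 15.9, 40.8, 18.8 and 26.9 FPKM. The Fb was at the floor of these libraries, with an estimated 0 to 8 fragments, whereas the Mb rested on 73 to 174. Hes3 differed by 4.12 on the log2 scale (SE 0.27, limma adjusted p = 5.55e-07). This size depends on the pseudocount, and it was 5.57 with a pseudocount of 0.1 and 2.51 with one of 5, each past the threshold.

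Hes5 was the most abundant target in the Mb. It ran from 66.1 to 145 FPKM in the WT Mb (median 98.9) and from 16.2 to 39.0 FPKM in the WT Fb (median 25.4), with no overlap. Its log2 difference was 1.87 (SE 0.22, limma adjusted p = 1.05e-04). Hes1 went the other way. It lay within the narrow range of 49.0 to 54.1 FPKM in the WT Fb (median 52.6) and ran from 16 to 36.7 FPKM in the WT Mb (median 22.2), so every Fb library was above every Mb library. Hes1 differed by -1.14 on the log2 scale (SE 0.15, limma adjusted p = 2.23e-04), and the mean Fb level was 2.19 times that of the Mb.

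Hey1, a repressor of the related Hey family, was at 13.8 ± 3.39 FPKM in the WT Fb and 8.97 ± 1.77 FPKM in the WT Mb (n = 6 each, SD). The groups overlapped between 9.80 and 11.4 FPKM. Its log2 difference was -0.56 (SE 0.16, limma adjusted p = 0.0475), just past the threshold. Hey1 did not pass in 14 of the 20 other settings, including the fit without WT Mb replicate 5 (adjusted p = 0.105).

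Hes1, Hes3 and Hes5 thus took different shares in the 2 tissues. In the WT Fb, Hes1 made up 66.0 ± 7.36% of their summed FPKM, Hes5 33.2 ± 7.11% and Hes3 0.833 ± 0.656% (SD, n = 6). In the WT Mb, Hes5 made up 65.0 ± 12.6%, Hes3 19.2 ± 8.07% and Hes1 15.8 ± 5.24% (SD, n = 6). The sum itself was 80.0 ± 8.05 FPKM in the Fb and 154 ± 24.9 FPKM in the Mb. Over all 32 libraries, the Hes1 share was 49.5% to 76.1% in the Fb and 10.4% to 25.4% in the Mb. These shares are a description of levels already tested gene by gene.

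**Figure D2:**
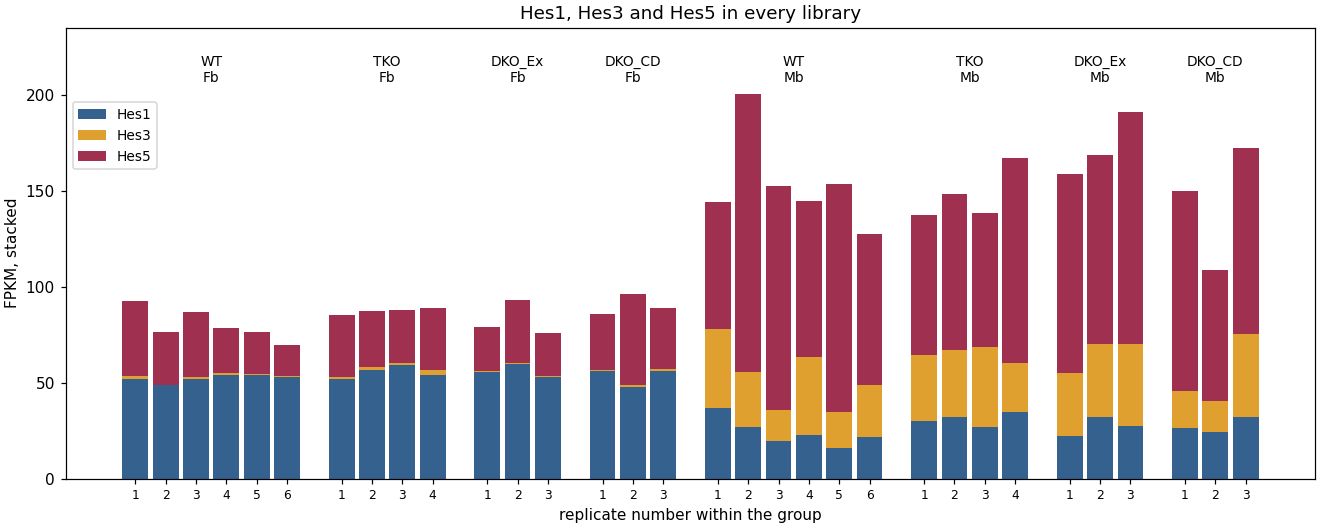
Stacked FPKM of Hes1, Hes3 and Hes5 (vertical axis) in each of the 32 libraries, ordered by tissue and genotype group (horizontal axis, replicate number). Hes1 fills most of each Fb bar except in DKO_CD replicate 2, whereas Hes5 and Hes3 fill most of each Mb bar, and the Mb bars are the taller ones.

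Non-overlap was a stricter description. In the WT, 5 of the 10 members (Dll3, Jag1, Hes1, Hes3 and Hes5) had no overlap between the 6 Mb and 6 Fb libraries, against 5.59% of all genes tested. Over all 16 Mb and 16 Fb libraries, mutants included, these 5 genes still did not overlap, against 1.53% of the 13441 genes averaging 1 FPKM or more. The closest pairs over the 32 libraries were 11.8 FPKM in a TKO Fb library and 14.9 FPKM in a DKO_CD Mb library for Jag1, and 5.18 FPKM in a TKO Fb library and 7 FPKM in a WT Mb library for Dll3.

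The mutant libraries had no part in the WT fit and gave a separate view of the tissue difference. In limma over the 10 mutant Mb and 10 mutant Fb libraries, with genotype group as a covariate, the members called were the same 7 in the same directions. Of 13452 genes tested, 9.96% were called, and 5.49% of the 13060 genes tested in both fits were called in both in the same direction. The log2 difference was 4.03 for Hes3, 2.26 for Dll3, 1.55 for Hes5, 1.06 for Jag1, 0.67 for Dll1, -0.92 for Hes1 and -0.37 for Hey1. The adjusted p ran from 2.15e-12 for Hes3 to 0.0308 for Hey1. The receptors lay at 0.27 (Notch1), 0.01 (Notch2) and -0.04 (Notch3), none past the threshold. The Hey1 call was lost in 11 of 29 other settings, among them the fit without both TKO libraries of replicate 3 (adjusted p = 0.0859).

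**Figure D3:**
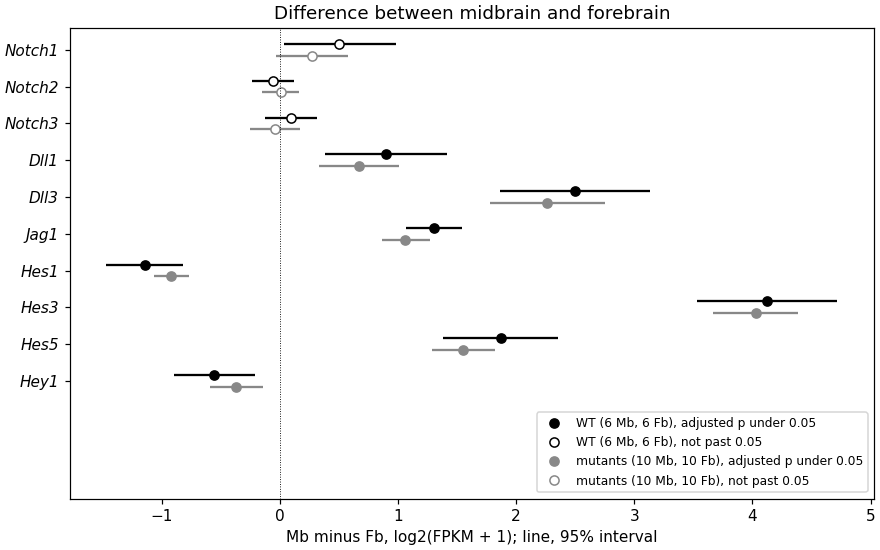
Difference between Mb and Fb on the log2(FPKM + 1) scale (horizontal axis) for each gene, in 6 Mb and 6 Fb WT libraries (black) and in 10 Mb and 10 Fb mutant libraries (grey), with 95% intervals. Filled points have an adjusted p under 0.05. Hes3, Dll3, Hes5, Jag1 and Dll1 lie to the right of 0 and Hes1 and Hey1 to the left in both fits.

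Within each genotype the 5 genes without overlap kept their direction, which their lack of overlap over all libraries already implies. Hes1 was at 51.9, 56.4, 59.2 and 53.9 FPKM in the TKO Fb and at 30.1, 32.2, 27.0 and 34.6 FPKM in the TKO Mb. Its DKO_Ex values were 55.4, 59.6 and 53.0 FPKM in the Fb and 22.2, 32.2 and 27.6 FPKM in the Mb. Its DKO_CD values were 56.3, 47.6 and 56.0 FPKM in the Fb and 26.3, 24.2 and 31.9 FPKM in the Mb. The Fb value was the higher in every pairing of libraries. Hes5 was at 22.3 to 47.5 FPKM over the 10 mutant Fb libraries (median 30.6) and at 68.0 to 121 FPKM over the 10 mutant Mb libraries (median 97.5). Its highest Fb value, 47.5 FPKM, was in DKO_CD Fb replicate 2, and the highest Dll3 of the Fb, 5.18 FPKM, was in TKO Fb replicate 4, the libraries with low Lhx2.

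Other genes of the pathway came from lists of 51 genes, of which 45 were tested in the WT tissue comparison. Of these 45, 11 were called as higher in the Mb and 1 as higher in the Fb. Among all genes tested, 4.66% were called as higher in the Mb and 3.6% as lower. The median log2 difference of the 45 genes was 0.19, against 0.00 over all genes tested. All 5 proneural genes tested were higher in the Mb. These genes drive neurogenesis. Neurog1 differed by 2.82, Neurod4 by 2.11, Neurod1 by 1.71 and Neurog2 by 1.35, with adjusted p from 2.31e-05 to 0.00102. Atoh1 was below the filter.

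Dlk1, a membrane protein of the Delta family without the domain that activates receptors, was the largest difference of all the lists. It ran from 257 to 397 FPKM in the WT Fb (median 301) and from 8.48 to 16.7 FPKM in the WT Mb (median 11.4). The log2 difference was -4.60 (SE 0.17, limma adjusted p = 1.05e-09). In the mutants it was at 207 to 442 FPKM in the Fb and 4.62 to 19.9 FPKM in the Mb, so no Mb library came near any Fb library. Dlk1 was thus far above Dll1, Dll3 and Jag1 per length in the Fb. Notch4, Dll4 and Jag2 did not pass in the WT, and Dlk2 and Dner were below the filter. In the mutants, Dll4 was called as higher in the Mb (log2 difference 0.43, limma adjusted p = 0.0424).

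Of the sugar transferases, which tune the response of receptors to Delta and Jagged, 2 of 5 were higher in the Mb. Lfng was at 23.2 ± 4.86 FPKM in the WT Fb and 48.5 ± 13.4 FPKM in the WT Mb (n = 6 each, SD), a log2 difference of 1.01 (limma adjusted p = 0.00465). The other was Mfng, at 0.65 (limma adjusted p = 0.0221), which like Hes6, Hey2, Nrarp and Rbpj below is not among the genes chosen by rule and was picked with its values in view. Dtx4, a ubiquitin ligase that acts on receptors, was the 1 gene called among 10 tested for ubiquitin transfer and endocytosis, and it rose from 17.3 ± 2.44 FPKM in the Fb to 44.7 ± 4.36 FPKM in the Mb (SD, n = 6 each, log2 difference 1.32, limma adjusted p = 1.74e-06). Each of the 3 further targets tested was higher in the Mb, with a log2 difference of 0.80 for Hes6, 0.82 for Hey2 and 0.77 for Nrarp. Of 9 proteases and 9 genes of the nuclear complex, 0 were called in the WT, and the median log2 difference was -0.03 and 0.12. Rbpj itself was at 0.45 (limma adjusted p = 0.0630) in the WT and at -0.08 in the mutants. In the mutant libraries 13 of the 45 genes were higher in the Mb and 2 higher in the Fb, where 9.96% of all genes were called. These include 2 of the 9 proteases, named with their values in view, which went opposite ways. Adam10 differed by 0.35 (limma adjusted p = 0.0054) and Furin by -0.50 (limma adjusted p = 0.0251).

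**Figure D4:**
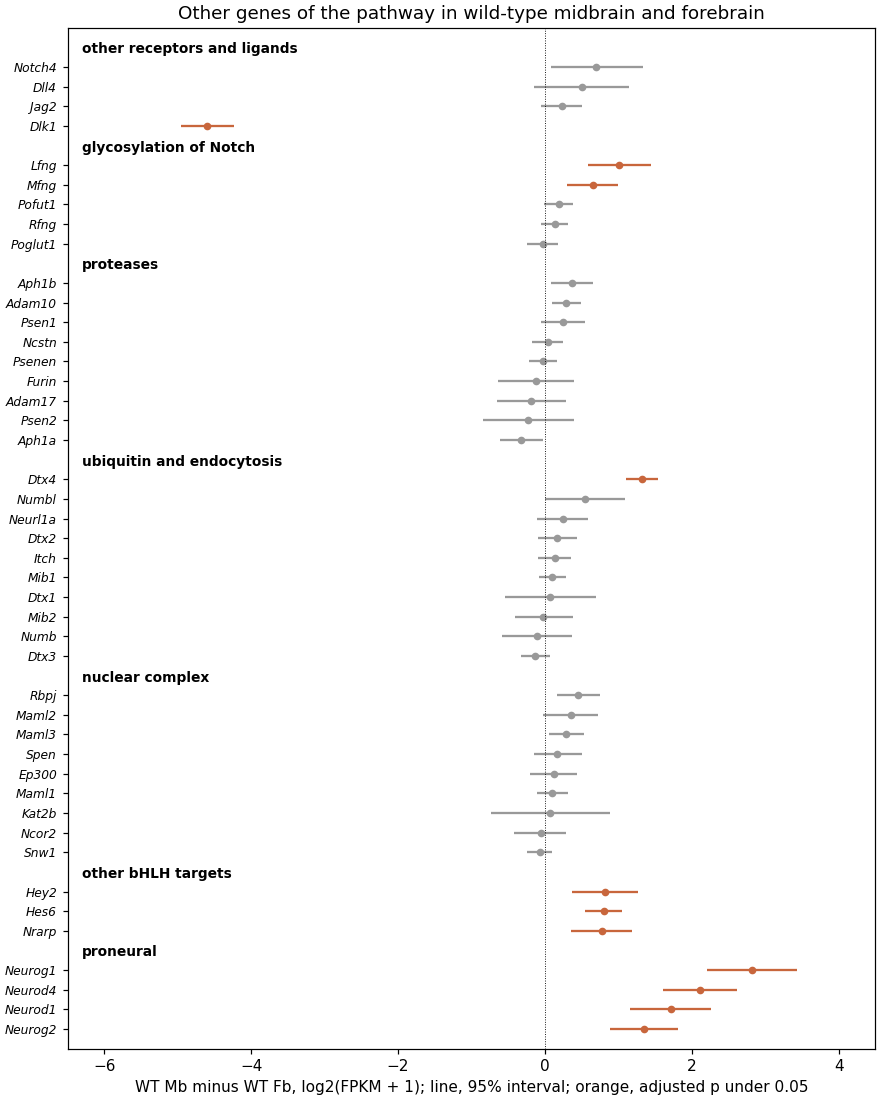
Difference between WT Mb and WT Fb on the log2(FPKM + 1) scale (horizontal axis) for 44 of the 45 other pathway genes tested, grouped by role, with 95% intervals and orange for an adjusted p under 0.05. The 4 proneural genes plotted lie to the right, Dlk1 stands alone on the left at -4.60, and the proteases and the nuclear complex lie around 0.

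Markers of several cell types moved with the tissue too, and their part in the differences of the Notch genes was not tested. All 4 of the early neuron markers found, of 5 listed, were higher in the WT Mb (Dcx, Elavl3, Stmn2 and Nhlh1). Their summed level was 4.73 to 9.39 FPKM in the WT Fb and 25.8 to 63.7 FPKM in the WT Mb, with 0 of them listed at 0 in any library. Of the head mesenchyme markers, 4 of the 5 found, of 6 listed, were higher in the WT Fb, with sums of 122 to 162 FPKM and 53.2 to 96.0 FPKM. The 5 surface ectoderm markers were all higher in the WT Fb, with sums of 57.1 to 94.3 FPKM and 23.3 to 36.4 FPKM. Of the 4 neural progenitor markers 2 were higher in the Mb, and the sums were 158 to 208 FPKM in the Fb and 225 to 254 FPKM in the Mb. For the 6 endothelial markers 0 were called, with sums of 30.9 to 40.1 FPKM and 28.4 to 41.2 FPKM. Endothelial cells also use Dll4, Notch1 and Hey1. The midbrain and isthmus markers summed to 15.7 to 31.5 FPKM in the WT Fb and 36.5 to 219 FPKM in the WT Mb. WT Mb replicate 5, the lowest of the Mb, was below the 47.5 FPKM of TKO Fb replicate 4. Of that 47.5 FPKM, Fgf8 made up 38.9 FPKM and Wnt1 3.85 FPKM. En1 and En2 were listed at 0 in TKO Fb replicate 4, and Pax5 was at 0.174 FPKM. En2 was listed at 0 in 3 WT Fb libraries. Against WT, 0 markers of any list were called in the averaged mutants of either tissue.

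Levels also varied among libraries of the same tissue. Of the 6 WT Mb libraries, replicate 1 had the lowest Notch1 (8.97 FPKM), Dll1 (12.9 FPKM), Dll3 (7 FPKM) and Hes5 (66.1 FPKM), together with the highest Hes1 (36.7 FPKM) and Hes3 (41.5 FPKM). Its early neuron markers summed to 25.8 FPKM, the lowest of the 6. WT Mb replicate 2 had the highest Dll1 (35.2 FPKM), Dll3 (19.1 FPKM) and Hes5 (145 FPKM), and the highest early neuron sum, 63.7 FPKM. WT Mb replicate 5 had the highest Notch1 (19.7 FPKM) and the lowest Hes1 (16 FPKM), with an early neuron sum of 61.6 FPKM. In the WT Fb, Hes1 was the member with the smallest SD relative to its mean.

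The genes whose levels were most like those of each member were found by Pearson correlation of log2(FPKM + 1) over the 32 libraries, among 8256 protein-coding genes averaging 5 FPKM or more. The libraries share tissue and genotype, so for members that differ between Fb and Mb a high value mostly reflects that step. For some pairs the value within the 16 libraries of a tissue is given as well. The likeness is a description. Hes3 was most like En2 (r = 0.975), followed by Cnpy1 (0.969) and BC024139 (0.969). Its r with En2 was 0.65 within the Mb and -0.40 within the Fb, where both genes are near 0. Among the genes most like Dll3 were 2510009E07Rik (r = 0.954, and 0.71 within the Mb and 0.78 within the Fb) and Trp53i11 (0.948). Hes5 was most like Trp53i11 (0.965, and 0.90 within the Mb), Pou3f1 (0.958) and Stmn2 (0.954, and 0.83 within the Mb), the last of which is an early neuron marker. Jag1 was most like Pou3f1 (0.941), Efna2 (0.941) and Ildr2 (0.940). Within the Fb these were 0.34, 0.48 and 0.15, and within the Mb 0.73, 0.55 and 0.64.

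On the Fb side, Hes1 was most like the forebrain transcription factor genes Fezf2 (r = 0.925) and Fezf1 (0.921), then Irs4 (0.919). Within the Mb its r with Fezf2 was 0.36 and with Fezf1 0.30. Hey1 was most like Cxcl12 (0.740), Dusp9 (0.737) and Nnat (0.736). Dll1 was most like Cacng4 (0.789), Tspan18 (0.785) and Trim62 (0.782). Within the Fb these were 0.28, 0.24 and 0.38, and within the Mb 0.65, 0.64 and 0.78. The receptors had no gene above 0.750, with Klhl23 (0.750), Vash1 (0.696) and Celf1 (0.677) nearest to Notch3, Cxxc4 (0.713), Wdr37 (0.690) and Trp53inp2 (0.682) nearest to Notch1, and Supt5 (0.657), Smg6 (0.631) and Ndst1 (0.613) nearest to Notch2. For the receptors the likeness was also there within tissues. Within the Mb it was 0.75 for Klhl23, 0.73 for Cxxc4 and 0.60 for Supt5, and within the Fb 0.76, 0.61 and 0.75.

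The study asked whether loss of the cadherins changes gene expression in either tissue, and the 10 members were compared between each mutant group and the WT of the same tissue. In each of these comparisons 0 of the members passed the threshold. Few genes did in all. In the Mb it was 0.0898% of those tested in TKO, 0.0903% in DKO_Ex and 0.0375% in DKO_CD, and in the Fb it was 0.0603%, 0.0759% and 0.0378%. With the 3 mutant groups averaged against WT, 0.112% of genes were called in the Mb and 0.226% in the Fb, again with 0 members. The study's own DESeq2 test of read counts called more transcripts in the TKO Mb, so these shares belong to the test used here. The same WT libraries served every comparison within a tissue. Hes3 was below the filter in the Fb comparisons of DKO_Ex, DKO_CD and the averaged mutants and was not tested there.

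For the receptors, the averaged mutant difference in the Mb was 0.00 for Notch1 (95% interval -0.34 to 0.33), 0.05 for Notch2 (-0.13 to 0.22) and -0.07 for Notch3 (-0.27 to 0.14), all on the log2 scale. In the Fb it was 0.18 (-0.21 to 0.57), -0.02 (-0.20 to 0.16) and 0.07 (-0.17 to 0.30). Changes of 1 in either direction lie outside all 6 intervals, which hold for the average of the mutant groups and not for each group. At an unadjusted p under 0.05 there were 2 members in the TKO Fb, Notch1 and Hes3, where 8.66% of genes had one. Notch1 was at 10.3, 9.49, 16.2 and 17.9 FPKM in the TKO Fb, and at 6.08 to 14.5 FPKM in the WT Fb. Replicates 3 and 4 lay above every WT library, and replicates 1 and 2 lay within the WT range. Replicate 3 is the library whose Cdh6, at 3.74 FPKM, was in the WT Fb range of 2.04 to 4 FPKM. Replicate 4 had the lowest Lhx2 of the Fb, 28.9 FPKM. Notch1 differed by 0.55 (SE 0.24, unadjusted p = 0.0447, limma adjusted p = 0.555) on the log2 scale. Its 95% interval of 0.02 to 1.09 in the TKO Fb includes a change of 1. Surface ectoderm markers summed to 88.7, 89.2, 166 and 222 FPKM in these 4 libraries, and their part was not tested. In DKO_Ex Notch1 lay at 6.05, 6.22 and 7.41 FPKM in the Fb.

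For the ligands, Jag1 in the DKO_CD Mb was the member with the smallest unadjusted p. Its values there were 20.3, 14.9 and 15.3 FPKM, and the 6 WT Mb libraries ran from 20.6 to 26.9 FPKM. All 3 libraries lay below every WT library, as 3.38% of genes did not overlap in that comparison. Jag1 differed by -0.47 (SE 0.13, 95% interval -0.75 to -0.19, unadjusted p = 0.00398) on the log2 scale, with a limma adjusted p of 0.507, and 6.69% of genes had an unadjusted p under 0.05. Jag1 was the only one of the 10 members under 0.05 there. By record these 3 libraries would be DKO_Ex. In the DKO_Ex Mb Jag1 was at 23.8, 25.9 and 26.5 FPKM, within the WT range, and in the TKO Mb at 19.4, 18.0, 26.8 and 25.5 FPKM. DKO_CD Mb replicates 2 and 3 had surface ectoderm sums of 70.6 and 55.0 FPKM against 23.3 to 36.4 FPKM in the WT Mb, and replicate 1 had 20.3 FPKM. Head mesenchyme markers summed to 101, 142 and 84.3 FPKM in replicates 1 to 3, against 53.2 to 96.0 FPKM in the WT Mb. Midbrain and isthmus markers summed to 115, 106 and 207 FPKM, against 36.5 to 219 FPKM. The part of these marker levels in the Jag1 values was not tested. Averaged over the mutants, the Mb difference was -0.15 for Jag1, -0.20 for Dll1 and -0.03 for Dll3, with 95% intervals of -0.36 to 0.06, -0.64 to 0.25 and -0.55 to 0.49.

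For the targets, Hes1 in the Mb leaned upwards without passing the test. It was at 30.1, 32.2, 27.0 and 34.6 FPKM in the TKO Mb, against 36.7, 26.9, 19.7, 22.6, 16 and 21.7 FPKM in the WT Mb. The groups overlapped, and the highest value was in WT Mb replicate 1. Hes1 differed by 0.40 (SE 0.19, 95% interval -0.02 to 0.82, limma unadjusted p = 0.0575, adjusted p = 0.610) on the log2 scale. It was 0.53 without WT Mb replicate 1 (adjusted p = 0.209) and 0.30 without WT Mb replicate 5 (adjusted p = 0.757). Averaged over the mutants it was 0.28 (95% interval -0.02 to 0.59). In the Fb the averaged Hes1 difference was 0.07 (95% interval -0.05 to 0.18), the narrowest interval among the members.

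Hes5 differed from WT by -0.09 in the Mb (95% interval -0.43 to 0.26) and by 0.21 in the Fb (-0.14 to 0.57) over the averaged mutants. Hes3 differed by 0.20 in the Mb (-0.29 to 0.68). In the Fb, Hes3 was at 1.11, 1.63, 1.2 and 2.61 FPKM in TKO, and the log2 difference of 0.68 (unadjusted p = 0.0428, limma adjusted p = 0.550) rests on an estimated 4 to 9 fragments per library. Its highest Fb value was in TKO replicate 4, the library with the lowest Lhx2. Hey1 differed by 0.14 in the Mb (-0.16 to 0.43) and by -0.05 in the Fb (-0.31 to 0.22).

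The mutant effect was also compared between the tissues, as the averaged effect in the Mb minus that in the Fb. Of 13441 genes 0% were called, while 656 had an unadjusted p under 0.05, and none of the 10 members was among these. The estimate for the members ran from -0.30 for Hes5 to 0.22 for Hes1, with the widest interval for Dll3 (-1.03 to 0.61). Of the other pathway genes, 0 were called in any mutant comparison.

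**Figure D5:**
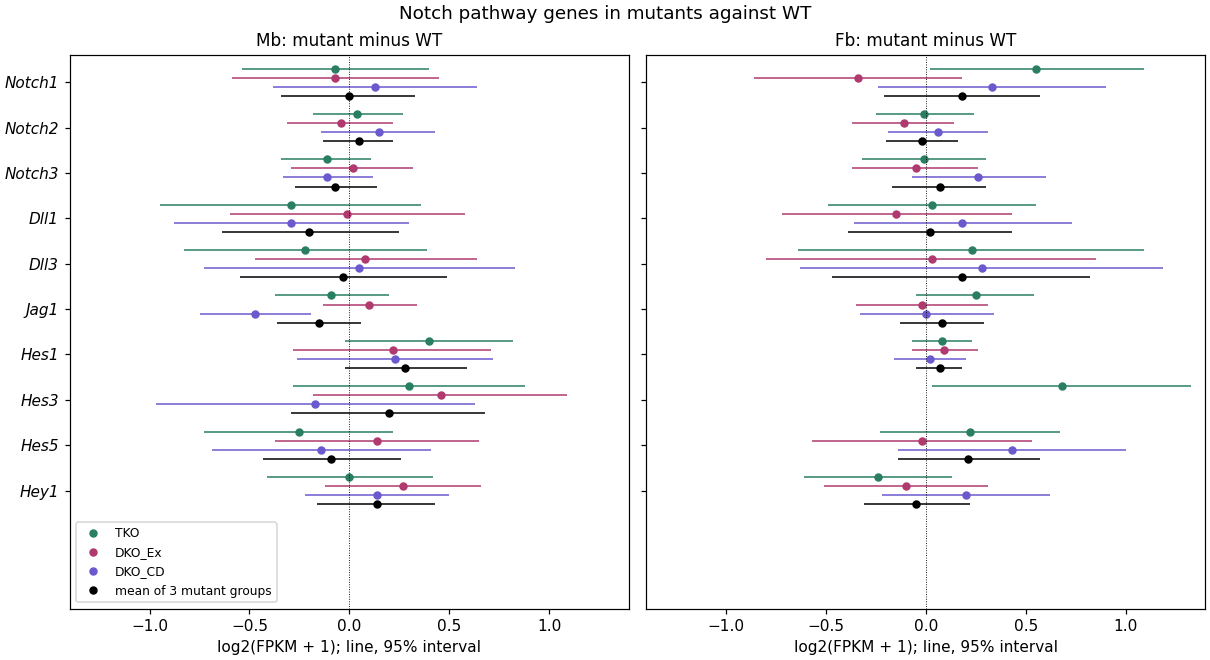
Difference between mutants and WT on the log2(FPKM + 1) scale (horizontal axes) in the Mb (left) and Fb (right) for each gene, for TKO (green), DKO_Ex (pink), DKO_CD (violet) and their mean (black), with 95% intervals. Intervals cross 0 except for Jag1 in the DKO_CD Mb and for Notch1 and Hes3 in the TKO Fb, and none of the genes plotted passed the adjusted threshold. Hes3 is blank where it was not tested.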

How the data were processed

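RNA-seq of Fb and Mb pieces from E9.5 embryos (32 libraries) was analysed. The authors made directional libraries. Per the submitters' processing notes, TopHat2 aligned the reads on GRCm38 and Cufflinks gave the deposited FPKM of each gene. Versions and annotation are not given in the sources used here. The read counts that the authors tested with DESeq2 (HTSeq) were not used here. Values of 65 repeated identifiers were summed, and 48218 of 48576 identifiers were named from GENCODE M21. Depth was estimated from the steps of low values in 771 single-transcript genes of at least 4000 bp, where 87.3% to 94.5% lay within 0.1 of whole fragments.

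limma 3.58.1 (R 4.3.3) (mean-variance trend on) was run on log2(FPKM + 1), keeping genes that averaged 1 FPKM or more across the libraries fitted. P-values were adjusted over all genes tested. Differences on this scale understate low genes. The fit was also run on simulated independent libraries, a run that does not cover low genes or changes as small as those seen in the mutants. Python 3.11.15 and SciPy 1.17.1 gave the rest. Groups follow the sample titles matched to column headings. Every member was named, with at most 8 called genes of the pathway lists per comparison and the 3 most alike genes per member. The members and lists were chosen with earlier results of these data known. Results for some genes that this rule names are not reported here.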

Additional observations from a re-analysis of the deposited data

Results flagged for a closer look

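Of 40 sets of libraries (10 genes in the 4 groups with 4 or 6 libraries), 2 held a value far from the rest, where chance gives about 1 in 20. Notch2 was at 5.88 FPKM in TKO Fb replicate 4, with the next lowest of that group at 7.87 FPKM. It was at 6.72 FPKM in TKO Mb replicate 3, with the next lowest of that group at 7.43 FPKM. The value of 6.72 FPKM lay within the 6.22 to 7.77 FPKM of the WT Mb, so it was low only within its group. The value of 5.88 FPKM was the lowest of the 16 Fb libraries.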

How the results depend on the processing

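In the WT tissue comparison 7 members were called, and 5 to 7 under 20 other settings. It was 5 with no filter, 6 with a pseudocount of 5, 6 without the mean-variance trend, and 5 to 6 with each library left out. Dll1 and Hey1 were the members lost. Dll1 was lost without WT Fb replicate 1, 2, 4 or 6 or WT Mb replicate 2, 5 or 6, and Hey1 without any WT library except WT Fb replicate 4 and WT Mb replicate 2. In the mutants 7 were called, and 6 to 7 under 29 other settings, with Hey1 the member lost. Without WT Mb replicate 5 and the TKO libraries of replicate 3, a choice made after seeing the data, 5 members were called in the WT and 6 in the mutants. By record, 7 were called in the mutants. No member was called in any mutant comparison under any setting run (lowest limma adjusted p 0.209), while the number of genes called in all moved over 1.5 times. In the Mb the 12 of TKO ranged from 0 to 52, the 12 of DKO_Ex from 1 to 17, the 5 of DKO_CD from 1 to 12 and the 15 of the averaged mutants from 7 to 27. In the Fb the 8, 10, 5 and 30 ranged from 0 to 32, 2 to 14, 2 to 15 and 9 to 53, and the 0 of the difference between tissues from 0 to 1. No called difference changed sign. Depth limits Hes3 and Dll3 in the Fb.

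Labels give Fb and Mb libraries the same numbers but do not say that they are the same embryo. The deviations of same-numbered Fb and Mb libraries correlated at -0.01 to 0.20 over 9153 genes, above 0.1 in 7 of 16 pairs. With a replicate block, 6 members were called in the WT, 7 in the mutants and 0 in each mutant comparison.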
